A study of Mus musculus with 9 samples.

Results

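The 7 mitochondrially encoded subunits of respiratory complex I were followed across the gastrocnemius, a fast-twitch muscle of the calf, in mice with and without the kinases p38α and p38γ in muscle. The members were the 7 rows named mt-Nd1, mt-Nd2, mt-Nd3, mt-Nd4, mt-Nd4l, mt-Nd5 and mt-Nd6 among 13179 genes in the deposited table. All 7 were among the 13137 genes that passed the filter on low values, which asked for 3 libraries with a value of 1 or more. Each was described by its value as deposited and as its share of the library's column sum.

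Polyadenylated RNA was sequenced from 9 libraries in 3 groups of 3. The groups were mice labelled p38αMCK-KO, which lack p38α in muscle, mice labelled p38α/γMCK-KO, which lack both kinases there, and controls, and the 3 groups shared a high-fat diet (HFD) of 6 weeks. MCK is the usual abbreviation of muscle creatine kinase, whose promoter is used to drive Cre in striated muscle fibres, so that the other cells of the muscle keep both genes. The labels used here name neither the Cre line nor the age or sex of the animals, nor do they state that each numbered library is 1 animal. The p-values below therefore speak of the spread among these libraries, which may be technical. Whether the controls carried the floxed alleles is also not stated there.

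Complex I, the NADH:ubiquinone oxidoreductase, is the entry point of electrons from NADH into the respiratory chain and one of its proton pumps. Its mitochondrially encoded subunits form the core of the membrane arm, while the remaining core subunits, which carry the electrons, and all accessory subunits are encoded in the nucleus. Mitochondrial DNA is transcribed from both strands into long precursors that are cut at the tRNAs, so that the mRNAs of one strand start from shared transcripts and their steady levels depend on processing and decay. Muscle fibres are rich in mitochondria, and these transcripts are among the most abundant in muscle RNA.

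By the GENCODE M21 annotation of GRCm38, 6 members lie on the plus strand of the mitochondrial chromosome. They are mt-Nd1 at chrM:2751-3707, mt-Nd2 at chrM:3914-4951, mt-Nd3 at chrM:9459-9806, mt-Nd4l at chrM:9877-10173, mt-Nd4 at chrM:10167-11544 and mt-Nd5 at chrM:11742-13565. On the minus strand lies mt-Nd6 at chrM:13552-14070. Each is 1 uninterrupted coding exon, and its transcript begins with its own start codon, GTG for mt-Nd1, ATA for mt-Nd2, ATT for mt-Nd3, ATC for mt-Nd5 and ATG for the other 3. G made up 28.1% of mt-Nd6 and between 8.0% and 11.6% of the other 6.

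Neighbouring members overlap, and 2 such places bear on the counts below. The last 7 bases of mt-Nd4l are the first 7 of mt-Nd4, and in mammals both are known to be translated from 1 mRNA. They are shown here because mt-Nd4l changed most of the members and mt-Nd4 did not pass the test. The mt-Nd4l transcript is given whole, from the GENCODE M21 transcripts, and mt-Nd4 by its first 60 bases, with the shared bases in capitals.
mt-Nd4l: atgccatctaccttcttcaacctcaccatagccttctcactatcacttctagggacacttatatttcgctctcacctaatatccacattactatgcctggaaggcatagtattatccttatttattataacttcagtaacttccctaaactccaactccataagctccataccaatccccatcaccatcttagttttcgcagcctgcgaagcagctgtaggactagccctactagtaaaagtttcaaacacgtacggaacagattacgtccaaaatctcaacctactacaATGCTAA
mt-Nd4: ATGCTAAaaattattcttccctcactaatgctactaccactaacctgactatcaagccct

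The ends of mt-Nd5 and mt-Nd6 overlap by 14 bases on opposite strands. Their last 60 bases are printed 5′ to 3′ on each gene's own strand, with the overlap in capitals. The libraries were made with a kit that keeps the strand, per the labels' protocols; whether the counting used it is not given in the sources used here.
mt-Nd5: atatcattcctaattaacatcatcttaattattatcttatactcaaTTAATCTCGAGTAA
mt-Nd6: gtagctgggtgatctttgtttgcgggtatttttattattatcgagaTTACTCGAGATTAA

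The nuclear genome holds near-identical copies of 3 members, in 1 block on the minus strand of chromosome 1 (GRCm38), and the table lists a row for each copy. Gm10222 (chr1:24612407-24612700) matched the first 294 of the 297 bases of mt-Nd4l without a mismatch. Gm28439 (chr1:24611535-24612410) matched the first 876 of the 1378 bases of mt-Nd4 without a mismatch. Gm28438 (chr1:24612775-24613119) matched mt-Nd3 over 345 bases with 1 difference, T3C, in which the first letter is the base of mt-Nd3, the number counts from the first base of the transcript and the last letter is the base of Gm28438. The first 33 bases show that base in capitals.
mt-Nd3: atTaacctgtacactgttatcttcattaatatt
Gm28438: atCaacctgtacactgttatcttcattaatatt

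Reads were 51 bases long. Of the stretches of 51 bases in each member, 98.8% in mt-Nd4l, 98.0% in mt-Nd3 and 62.2% in mt-Nd4 were also found in the copy, so that most reads of mt-Nd4l and mt-Nd3 could not be told from those of the copy by sequence. None of the stretches of mt-Nd1, mt-Nd2, mt-Nd5 and mt-Nd6 was shared with a copy in the table. Other annotated pseudogenes that the table does not list shared 8.00% of the stretches of mt-Nd2 and 7.22% of those of mt-Nd5. The values of mt-Nd3, mt-Nd4l and mt-Nd4 are therefore uncertain on their own, and are given below also as the sum of the gene and its copy.

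The inferred depth was 23.8 to 27.9 M reads a library, and column sums were 896829 to 1132175. Mapk14, which encodes p38α, measured 40.3 to 45.5 in the p38αMCK-KO and 37.0 to 54.7 in the p38α/γMCK-KO, against 143 to 157 in the controls. Mapk12, which encodes p38γ, measured 96.5 to 105 in the p38αMCK-KO and 31.2 to 35.5 in the p38α/γMCK-KO, against 138 to 152 in the controls. Library 1 of the p38αMCK-KO stood apart in the comparison of the knockouts: without it the genes called there numbered 1862, against 58 with it. For the p38αMCK-KO against control, 2350 genes were called without library 1 and 3241 without library 3, against 2332 with all libraries. The 9 fast fibre markers summed to 90689 to 137302 in the p38αMCK-KO, 111797 to 117244 in the p38α/γMCK-KO and 153345 to 167629 in the controls. Of that sum Myh4 averaged 35534, 27482 and 52317 in the same groups. Myh1, another fast myosin of the list, went the other way, at 4524 ± 2099, 6310 ± 1008 and 4117 ± 1272 (SD, n = 3 each). The 10 macrophage markers summed to 238 to 529 in the p38αMCK-KO, 312 to 508 in the p38α/γMCK-KO and 124 to 169 in the controls. In bulk muscle, fewer cells of a type and less RNA per cell cannot be told apart.

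The 3 largest values among the members belonged to mt-Nd1, mt-Nd4 and mt-Nd2. Compared per kilobase of transcript, mt-Nd1 averaged 16228 ± 503 in the p38αMCK-KO, 13987 ± 1269 in the p38α/γMCK-KO and 17206 ± 1118 in the controls (SD, n = 3 each). The level of mt-Nd6 per kilobase was 139 ± 19.1, 155 ± 12.9 and 145 ± 15.1 in the same groups, the lowest of the 7 in every group. Among the controls the other members had mean levels per kilobase of 12294 for mt-Nd2, 12044 for mt-Nd4, 3707 for mt-Nd3, 3631 for mt-Nd5 and 1974 for mt-Nd4l. The means of mt-Nd2 and mt-Nd4, and those of mt-Nd3 and mt-Nd5, differed by less than 1 SD of either gene. Summed with their copies, mt-Nd4, mt-Nd3 and mt-Nd4l stood at 14233 ± 1094, 7813 ± 524 and 4363 ± 370 per kilobase in the controls. The libraries were selected for poly(A), and in human cells ND6 mRNA is known to carry no such tail.

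The members together took 4.96%, 5.05% and 4.62% of the column sum in p38αMCK-KO libraries 1, 2 and 3. In p38α/γMCK-KO libraries 1, 2 and 3 the share was 4.74%, 3.75% and 4.25%, and in control libraries 1, 2 and 3 it was 5.04%, 4.79% and 4.98%. All 3 p38α/γMCK-KO libraries lay below the lowest control, whereas the p38αMCK-KO overlapped the controls. Of the 13 mitochondrially encoded mRNAs, the members made up 36.3%, 36.7% and 37.7% in the p38αMCK-KO, 36.2%, 35.4% and 35.0% in the p38α/γMCK-KO and 37.1%, 37.97% and 37.3% in the controls. Chromosome 1 also holds copies of other mitochondrial mRNAs, and these shares leave all copies out. With the copies counted, the members made up 27.1% to 29.1% in the p38αMCK-KO, 26.7% to 28.4% in the p38α/γMCK-KO and 29.2% to 29.8% in the controls. The largest part of each stack came from mt-Nd1, mt-Nd4 and mt-Nd2, while mt-Nd5, mt-Nd3, mt-Nd4l and mt-Nd6 took under 1% each.

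**Figure D1:**
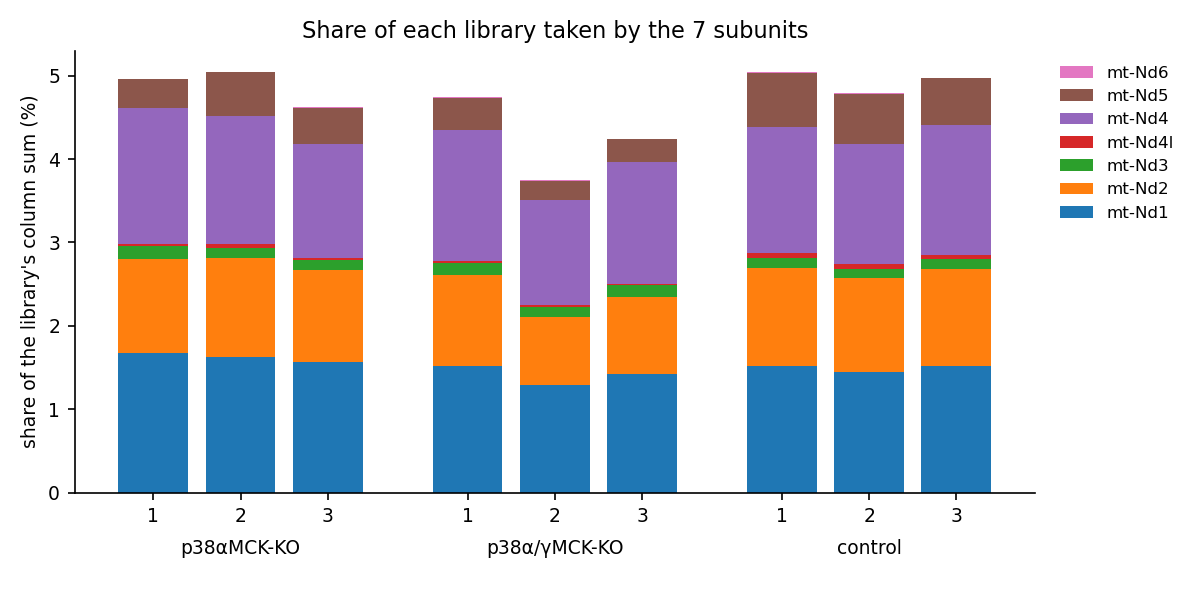
Share of each library's column sum (%, vertical axis) taken by the 7 subunits, stacked by gene, for libraries 1 to 3 of the p38αMCK-KO, the p38α/γMCK-KO and the control. The p38α/γMCK-KO stacks reach 3.75% to 4.74%, against 4.79% to 5.04% in the controls, and the mt-Nd5 layer is thinner in both knockouts.

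The clearest differences were in mt-Nd5 and mt-Nd4l. Both fell in the p38α/γMCK-KO, mt-Nd5 2.42-fold and mt-Nd4l 2.60-fold, and mt-Nd2 fell 1.42-fold. In the p38αMCK-KO mt-Nd4l fell 1.98-fold, and mt-Nd5 was 1.62-fold lower at an adjusted p just above the threshold. Values of mt-Nd1, mt-Nd3, mt-Nd4 and mt-Nd6 did not pass the test in either knockout. The mean of mt-Nd4, which shares its mRNA with mt-Nd4l, was 1.22-fold lower in the p38α/γMCK-KO. The values of mt-Nd4l and mt-Nd4 therefore cannot both stand for the level of the shared mRNA, and the cause of the split was not tested. The tests were limma on log2(value + 1) with Benjamini-Hochberg adjustment over all 13137 genes, called at an adjusted p below 0.05, and the 2 comparisons with control share the same 3 control libraries.

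ND5 is the antiporter-like subunit at the far end of the membrane arm and takes part in proton pumping. The value of mt-Nd5 was 3110, 5116 and 4263 in p38αMCK-KO libraries 1, 2 and 3. It was 3573, 2175 and 2615 in p38α/γMCK-KO libraries 1, 2 and 3, and 7338, 6303 and 6230 in control libraries 1, 2 and 3. Every knockout library lay below every control, and the lowest were p38α/γMCK-KO libraries 2 and 3 and p38αMCK-KO library 1. The log2 fold change was -0.70 (SE 0.218, 95% confidence interval -1.18 to -0.21, limma adjusted p = 0.0535) in the p38αMCK-KO. For the p38α/γMCK-KO it was -1.27 (SE 0.218, interval -1.76 to -0.79, limma adjusted p = 0.00630). The two-sided exact permutation p over 6 libraries was 0.1 in both, the smallest that 3 against 3 allows.

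ND4L is the small subunit beside ND6 and ND2 in the membrane arm. The value of mt-Nd4l was 220, 417 and 279 in p38αMCK-KO libraries 1, 2 and 3. It was 309, 180 and 204 in p38α/γMCK-KO libraries 1, 2 and 3, and 625, 569 and 564 in control libraries 1, 2 and 3. Neither knockout overlapped the controls, and the 3 lowest values came from the same 3 libraries as for mt-Nd5. The log2 fold change was -0.99 (SE 0.239, interval -1.52 to -0.45, limma adjusted p = 0.0224) in the p38αMCK-KO and -1.38 (SE 0.239, interval -1.91 to -0.84, limma adjusted p = 0.00644) in the p38α/γMCK-KO. The exact permutation p was 0.1 in both. The call in the p38αMCK-KO was lost without each of the controls in turn, with limma adjusted p of 0.0765, 0.0634 and 0.0685 without controls 1, 2 and 3.

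The difference was of similar size when the copy was counted with mt-Nd4l. Gm10222 had 253, 485 and 478 in the p38αMCK-KO, 375, 210 and 261 in the p38α/γMCK-KO and 795, 642 and 691 in the controls. The share of the sum assigned to mt-Nd4l averaged 43.2% ± 5.49 in the p38αMCK-KO, 45.1% ± 1.15 in the p38α/γMCK-KO and 45.3% ± 1.51 in the controls (SD, n = 3 each). With the copy added, mt-Nd4l changed by -0.91 in the p38αMCK-KO (limma adjusted p = 0.0340) and by -1.37 in the p38α/γMCK-KO (limma adjusted p = 0.00744) on the log2 scale.

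ND4 and ND2 are antiporter-like subunits as well. The value of mt-Nd4, which shares its mRNA with mt-Nd4l, was 14567, 15045 and 13517 in the p38αMCK-KO. It was 14839, 11740 and 14285 in the p38α/γMCK-KO and 17123, 15272 and 17396 in the controls. Both knockouts lay below the lowest control, by a small margin in p38αMCK-KO library 2. The log2 fold change of -0.21 (SE 0.152, limma adjusted p = 0.365) in the p38αMCK-KO and of -0.29 (SE 0.152, limma adjusted p = 0.175) in the p38α/γMCK-KO did not pass the test.

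The copy of mt-Nd4 varied far more than the gene. Gm28439 had 316, 1557 and 1927 in the p38αMCK-KO, 1381, 365 and 385 in the p38α/γMCK-KO and 3424, 2601 and 3021 in the controls. Of the summed value, 97.9%, 90.6% and 87.5% was assigned to mt-Nd4 in the p38αMCK-KO and 91.5%, 97.0% and 97.4% in the p38α/γMCK-KO, against 83.3%, 85.4% and 85.2% in the controls. The low copy values were those of p38αMCK-KO library 1 and p38α/γMCK-KO libraries 2 and 3, the libraries that were lowest in mt-Nd5 and mt-Nd4l. With the copy added, mt-Nd4 was -0.32 (limma adjusted p = 0.181) in the p38αMCK-KO and -0.46 (limma adjusted p = 0.0594) in the p38α/γMCK-KO on the log2 scale. The same 3 libraries were also the only ones of the 9 with reads on Gm29216, the copy of the end of mt-Co1, at 1837, 750 and 1180; whether this bears on the members was not tested.

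**Figure D2:**
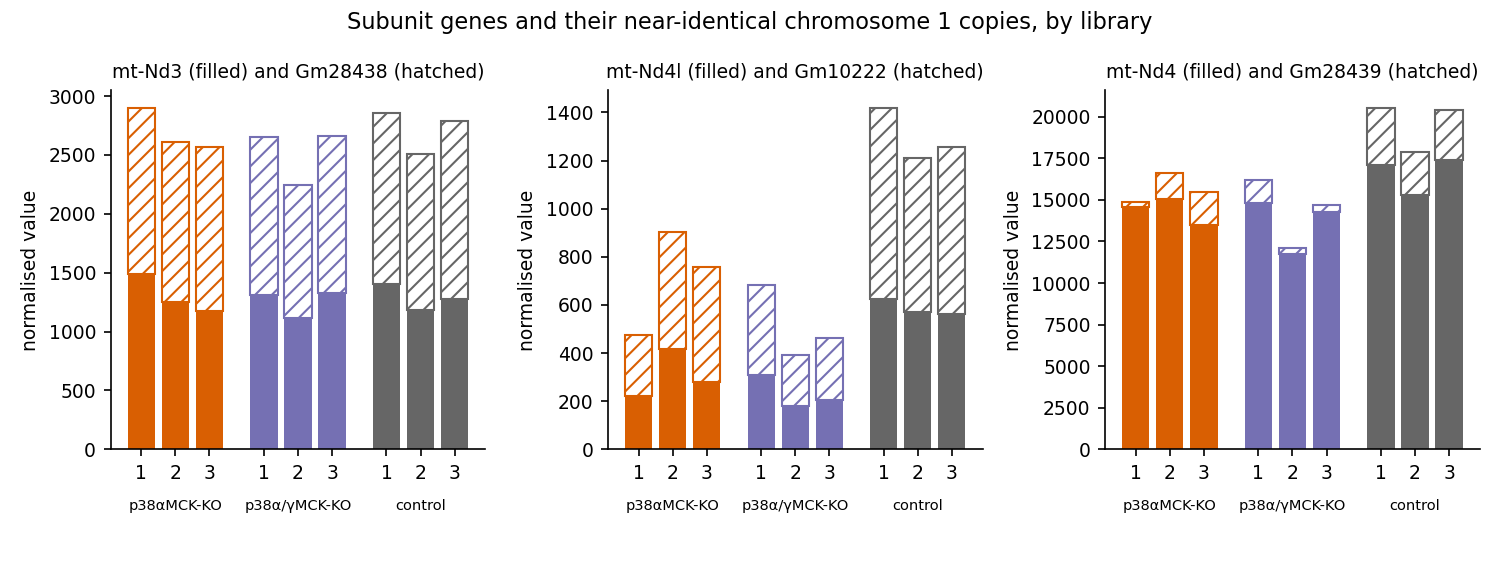
Normalised values (vertical axes) of mt-Nd3, mt-Nd4l and mt-Nd4 (filled) with their chromosome 1 copies stacked on top (hatched), for libraries 1 to 3 of the p38αMCK-KO, the p38α/γMCK-KO and the control. The sum of mt-Nd4l and Gm10222 is 390 to 902 in the knockouts and 1212 to 1420 in the controls, the sums for mt-Nd3 overlap, and the hatched part on mt-Nd4 is thinnest in p38αMCK-KO library 1 and p38α/γMCK-KO libraries 2 and 3.

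The value of mt-Nd2 was 10048, 11573 and 10939 in the p38αMCK-KO. It was 10329, 7693 and 9101 in the p38α/γMCK-KO and 13241, 11987 and 13056 in the controls. Again no knockout library reached the lowest control. The fall of 0.51 on the log2 scale in the p38α/γMCK-KO (SE 0.150, limma adjusted p = 0.0359) passed the test, and the value of -0.23 (SE 0.150, limma adjusted p = 0.296) in the p38αMCK-KO did not. With the replicate number as a block in the 9 libraries the limma adjusted p in the p38α/γMCK-KO was 0.0704, and with the block in the 6 libraries of that comparison it was 0.0191. Over all genes, the first of these fits called 2320 of 13137 and the second 5563 of 12827.

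The remaining members sit near the junction with the arm that reaches into the matrix. ND1 forms much of the path by which ubiquinone enters, and mt-Nd1 was 15021, 15979 and 15590 in the p38αMCK-KO, 14320, 12014 and 13823 in the p38α/γMCK-KO and 17239, 15245 and 16913 in the controls. The p38α/γMCK-KO lay below the controls and the p38αMCK-KO overlapped them. Its log2 fold change was -0.08 (SE 0.143, limma adjusted p = 0.716) in the p38αMCK-KO and -0.30 (SE 0.143, limma adjusted p = 0.140) in the p38α/γMCK-KO.

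ND3 carries a loop that is known to move between the active and resting forms of the mammalian enzyme. The value of mt-Nd3 was 1488, 1252 and 1174 in the p38αMCK-KO, 1311, 1119 and 1325 in the p38α/γMCK-KO and 1405, 1186 and 1279 in the controls. The 3 groups overlapped, with log2 fold changes of 0.01 (SE 0.123, limma adjusted p = 0.955) in the p38αMCK-KO and -0.04 (SE 0.123, limma adjusted p = 0.809) in the p38α/γMCK-KO. Gm28438 measured 1361 to 1414 in the p38αMCK-KO, 1122 to 1340 in the p38α/γMCK-KO and 1326 to 1512 in the controls.

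ND6, the member of the other strand, measured 60.8, 76.7 and 78.8 for mt-Nd6 in the p38αMCK-KO. The values were 76.0, 77.7 and 88.3 in the p38α/γMCK-KO and 82.2, 66.7 and 77.0 in the controls. The groups overlapped, and the log2 fold changes were -0.07 (SE 0.122, limma adjusted p = 0.737) in the p38αMCK-KO and 0.10 (SE 0.122, limma adjusted p = 0.559) in the p38α/γMCK-KO. Across the 9 libraries the Pearson correlation of mt-Nd6 with each of the other members lay between -0.22 and -0.01, while mt-Nd5 correlated at 0.98 with mt-Nd4l, at 0.97 with mt-Nd2 and at 0.12 with mt-Nd3. These correlations describe 9 libraries that share 1 scaling.

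**Figure D3:**
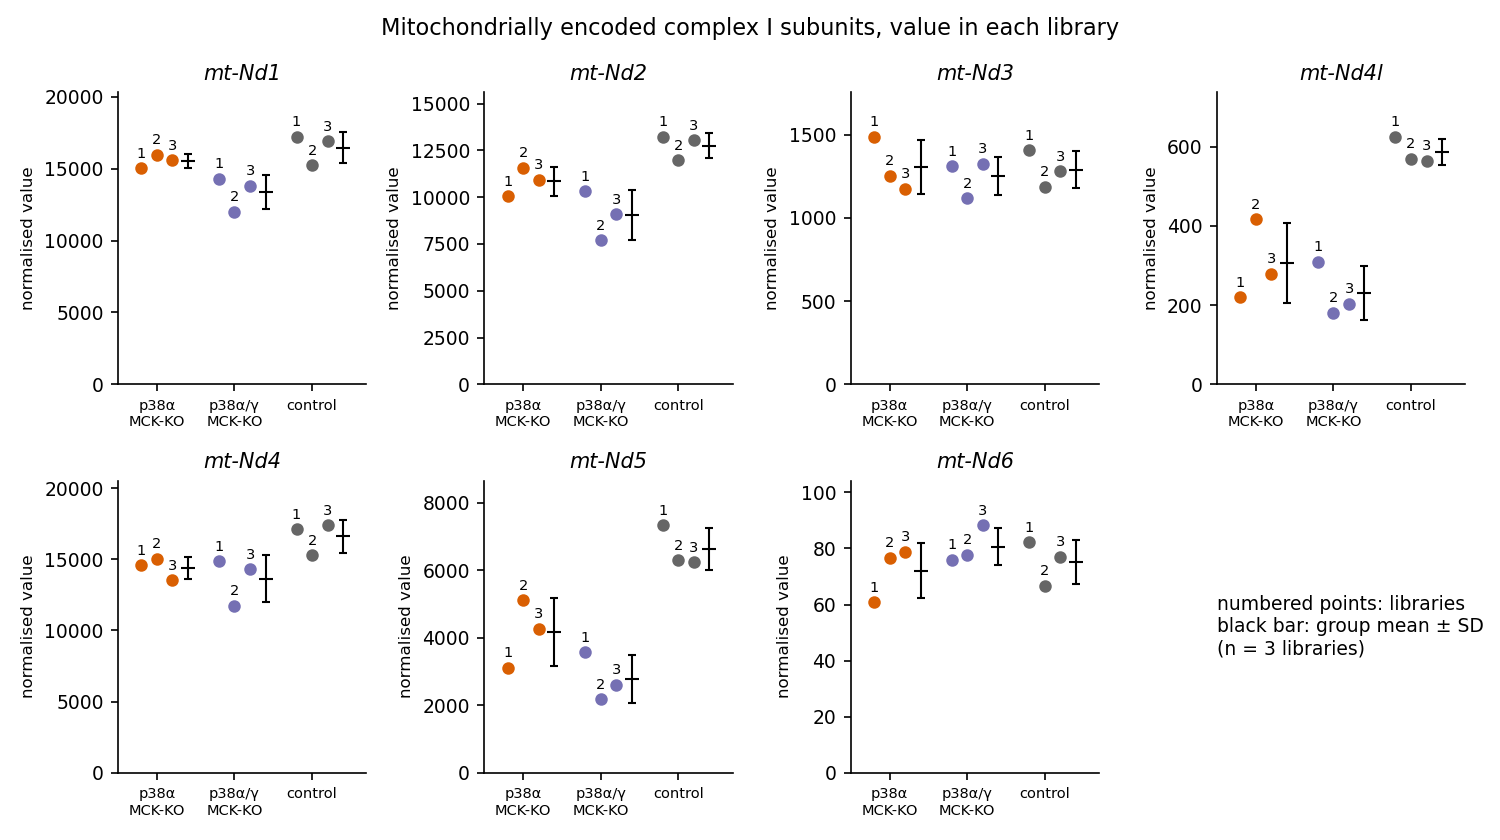
Normalised value (vertical axes, from 0) of each subunit gene in libraries 1 to 3 of the p38αMCK-KO, the p38α/γMCK-KO and the control, with the group mean ± SD as black bars (n = 3 libraries). The knockout points of mt-Nd5 and mt-Nd4l lie apart from the controls, those of mt-Nd3 and mt-Nd6 do not.

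In the p38αMCK-KO against control, 1 of the 7 members was called lower and 0 higher. Of all 13137 genes, 10.4% were called lower, 7.32% higher and 17.8% in either direction. The groups did not overlap for 4 members (mt-Nd2, mt-Nd4, mt-Nd4l and mt-Nd5), which is to be read against 38.6% of all genes. The median log2 fold change was -0.21 over the members and 0.01 over all genes.

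In the p38α/γMCK-KO against control, 3 of the 7 members were called lower and 0 higher, where 14.4% of all genes were called lower, 11.2% higher and 25.6% in either direction. The groups did not overlap for 5 members, the 4 above and mt-Nd1, against 55.0% of all genes. The median log2 fold change was -0.30 over the members and 0.02 over all genes.

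The p38αMCK-KO was also set against the p38α/γMCK-KO, from which it differs in keeping p38γ. By limma with adjustment over all genes 0 of 7 members were called, where 0.442% of all genes were. The unadjusted p was under 0.05 for 1 member, mt-Nd5, and no such share was computed over all genes. The value of mt-Nd5 averaged 4163 ± 1007 in the p38αMCK-KO and 2788 ± 715 in the p38α/γMCK-KO (SD, n = 3 each), and the groups overlapped. The log2 difference was 0.58 (95% confidence interval 0.09 to 1.07, limma p = 0.0244 and adjusted p = 0.329, two-sided exact permutation p = 0.2). Without p38αMCK-KO library 1 the difference was 0.77 with a limma adjusted p of 0.0298. In that fit 1862 of 13007 genes were called, against which the call of 1 of 7 members is to be read. The interval for mt-Nd4l ran from -0.14 to 0.92 around 0.39 (limma adjusted p = 0.549). Only for mt-Nd1 did these 2 groups not overlap, at a log2 difference of 0.22 (interval -0.10 to 0.54), where 14.3% of all genes did not overlap.

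Set against another member in the same library, which needs no scaling between libraries, mt-Nd5 and mt-Nd4l were low in both knockouts. These ratios restate the values above and are not separate evidence. The value of mt-Nd5 was 20.7%, 32.0% and 27.3% of that of mt-Nd1 in the p38αMCK-KO and 24.9%, 18.1% and 18.9% in the p38α/γMCK-KO, against 42.6%, 41.3% and 36.8% in the controls. The value of mt-Nd4l was 1.51%, 2.77% and 2.06% of that of mt-Nd4 in the p38αMCK-KO and 2.08%, 1.53% and 1.43% in the p38α/γMCK-KO, against 3.65%, 3.73% and 3.24% in the controls. Neither ratio overlapped between a knockout and the controls, and both were lowest in p38αMCK-KO library 1 and p38α/γMCK-KO libraries 2 and 3. The values of 38.6% of all genes in the p38αMCK-KO and 55.0% in the p38α/γMCK-KO did not overlap the controls. No such share was computed for ratios. The second ratio leaves out the copies. In those libraries 97.9%, 97.0% and 97.4% of the sum with the copy was assigned to mt-Nd4, against 83.3% to 85.4% in the controls.

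The column sums were lower in the knockouts, so the choice of scale mattered for the smaller differences. Expressed as shares of the column sum, the median of all genes moved to 0.19 in the p38αMCK-KO and 0.20 in the p38α/γMCK-KO. The calls over all genes were then 2506 higher and 626 lower in the p38αMCK-KO and 3338 higher and 836 lower in the p38α/γMCK-KO, where the deposited scale gave 962 higher and 1370 lower, and 1476 higher and 1892 lower. On that scale mt-Nd4l remained lower at -0.78 (limma adjusted p = 0.0350) in the p38αMCK-KO and -1.17 (limma adjusted p = 0.00915) in the p38α/γMCK-KO, and mt-Nd5 was -0.49 (limma adjusted p = 0.0937) and -1.06 (limma adjusted p = 0.00831). The call of mt-Nd2 in the p38α/γMCK-KO was lost (-0.29, limma adjusted p = 0.108) and mt-Nd6 was called higher (0.31, limma adjusted p = 0.0327). Relative to the median of all genes on that scale, the p38α/γMCK-KO values were -1.36 for mt-Nd4l, -1.26 for mt-Nd5, -0.49 for mt-Nd2 and 0.11 for mt-Nd6.

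**Figure D4:**
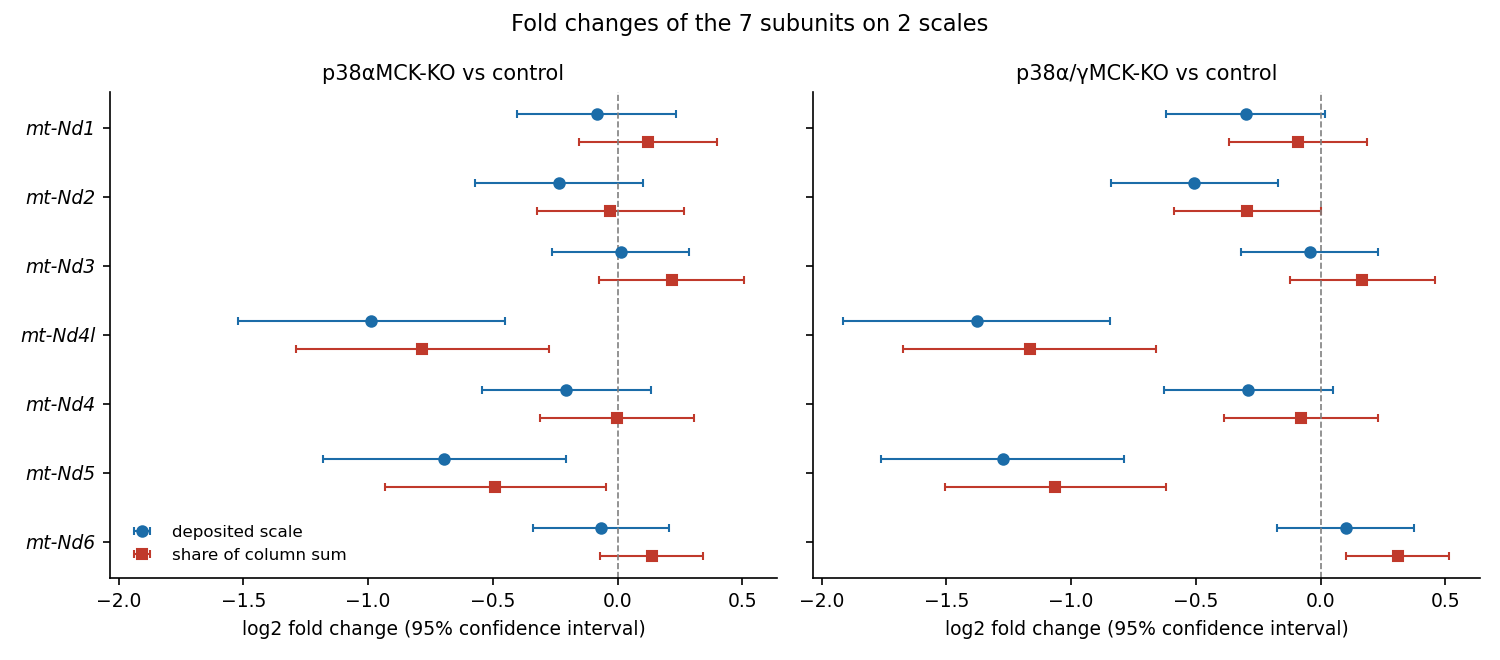
Log2 fold changes (horizontal axes) of the 7 subunit genes in the p38αMCK-KO (left) and the p38α/γMCK-KO (right) against control, on the deposited scale (circles) and as shares of the column sum (squares), with 95% confidence intervals that are not adjusted for the number of genes. The intervals of mt-Nd4l and mt-Nd5 lie below 0 on both scales, and those of mt-Nd3 include it.

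The 6 other mitochondrially encoded mRNAs were measured alongside. Of these 0 were called in the p38αMCK-KO and 1 in the p38α/γMCK-KO, with median log2 fold changes of -0.27 and -0.26. Of all genes, 14.4% were called lower in the p38α/γMCK-KO. The called gene was mt-Atp8, which encodes a small subunit of ATP synthase and overlaps mt-Atp6 by 43 bases. It measured 518, 1102 and 913 in the p38αMCK-KO and 707, 439 and 489 in the p38α/γMCK-KO, against 1568, 1339 and 1331 in the controls. Its log2 fold change was -1.40 (limma adjusted p = 0.00841) in the p38α/γMCK-KO and -0.81 (limma adjusted p = 0.0610) in the p38αMCK-KO, and its lowest libraries were those of mt-Nd5. The other 5 had values from -0.32 for mt-Co3 to 0.12 for mt-Co2 in the p38αMCK-KO and from -0.44 for mt-Co1 to 0.09 for mt-Co2 in the p38α/γMCK-KO; mt-Cytb and mt-Atp6 were at -0.17 and -0.28 and at -0.26 and -0.27. The ribosomal RNAs mt-Rnr1 and mt-Rnr2 were at 0.37 and 0.19 in the p38αMCK-KO and at 0.38 and 0.03 in the p38α/γMCK-KO and did not pass the test.

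Most of the summed value of mt-Atp6 and mt-Co3 was assigned to their chromosome 1 copies, Gm10925 and Gm28437, so that the values of both genes alone are uncertain. The gene held 11.1% to 15.8% of the sum for mt-Atp6 and 5.78% to 9.02% for mt-Co3 over the 9 libraries. For mt-Co2 it held 48.9% to 54.9% of the sum with its copy Gm28661, so the value of mt-Co2 alone is uncertain as well. Gm10925 was at -0.60 (limma adjusted p = 0.0259) and Gm28437 at -0.53 (limma adjusted p = 0.0371) in the p38α/γMCK-KO, calls that held in 13 and 11 of 22 alternative settings. In the p38αMCK-KO they were at -0.25 (limma adjusted p = 0.299) and -0.28 (limma adjusted p = 0.239). The sum of mt-Atp6 and its copy was 17614 to 20175 in the p38αMCK-KO and 13186 to 17380 in the p38α/γMCK-KO, against 20690 to 23598 in the controls. For mt-Co3 and its copy it was 17237 to 19215 in the p38αMCK-KO and 13261 to 17172 in the p38α/γMCK-KO, against 20063 to 23275 in the controls. Neither sum overlapped between a knockout and the controls. Of all genes, 38.6% did not overlap in the p38αMCK-KO and 55.0% in the p38α/γMCK-KO.

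On the deposited scale, transcripts of the nuclear subunits lay mostly above control, opposite in sign to most of the members. Of 36 nuclear subunit genes, 7 core and 29 accessory, 0 were called in the p38αMCK-KO and 11 were called higher and 0 lower in the p38α/γMCK-KO. Of all genes, 7.32% were called higher and 10.4% lower in the p38αMCK-KO, and 11.2% and 14.4% in the p38α/γMCK-KO. The log2 fold change was above 0 for all 36 in the p38αMCK-KO (median 0.25) and for 35 in the p38α/γMCK-KO (median 0.30). Among the called core subunits was Ndufs7, which holds the last iron-sulphur cluster, at 0.39 (limma adjusted p = 0.0474). The 3 accessory subunits with the lowest adjusted p were Ndufa2 at 0.58 (limma adjusted p = 0.0156), Ndufb3 at 0.73 (limma adjusted p = 0.0177) and Ndufa5 at 0.60 (limma adjusted p = 0.0226). Over 22 alternative settings the adjusted p stayed below 0.05 in 14 for Ndufs7, 18 for Ndufa2, 18 for Ndufb3 and 17 for Ndufa5. With the replicate number as a block in the 9 libraries, 1 core and 3 accessory genes were called in the p38α/γMCK-KO. That block also pairs the p38αMCK-KO libraries by number. As shares of the column sum, 4 of 7 core and 17 of 29 accessory genes were higher in the p38αMCK-KO and 5 of 7 and 28 of 29 in the p38α/γMCK-KO, beside the shift of all genes given above. For the members in the p38αMCK-KO that scale gave 0.12 for mt-Nd1, 0.22 for mt-Nd3 and 0.14 for mt-Nd6. It gave -0.03 for mt-Nd2, -0.0013 for mt-Nd4, -0.78 for mt-Nd4l and -0.49 for mt-Nd5. The summed level of the accessory subunits was 4889 to 6539 in the p38αMCK-KO, with library 1 the highest, and 5215 to 6431 in the p38α/γMCK-KO, against 4144 to 4814 in the controls.

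**Figure D5:**
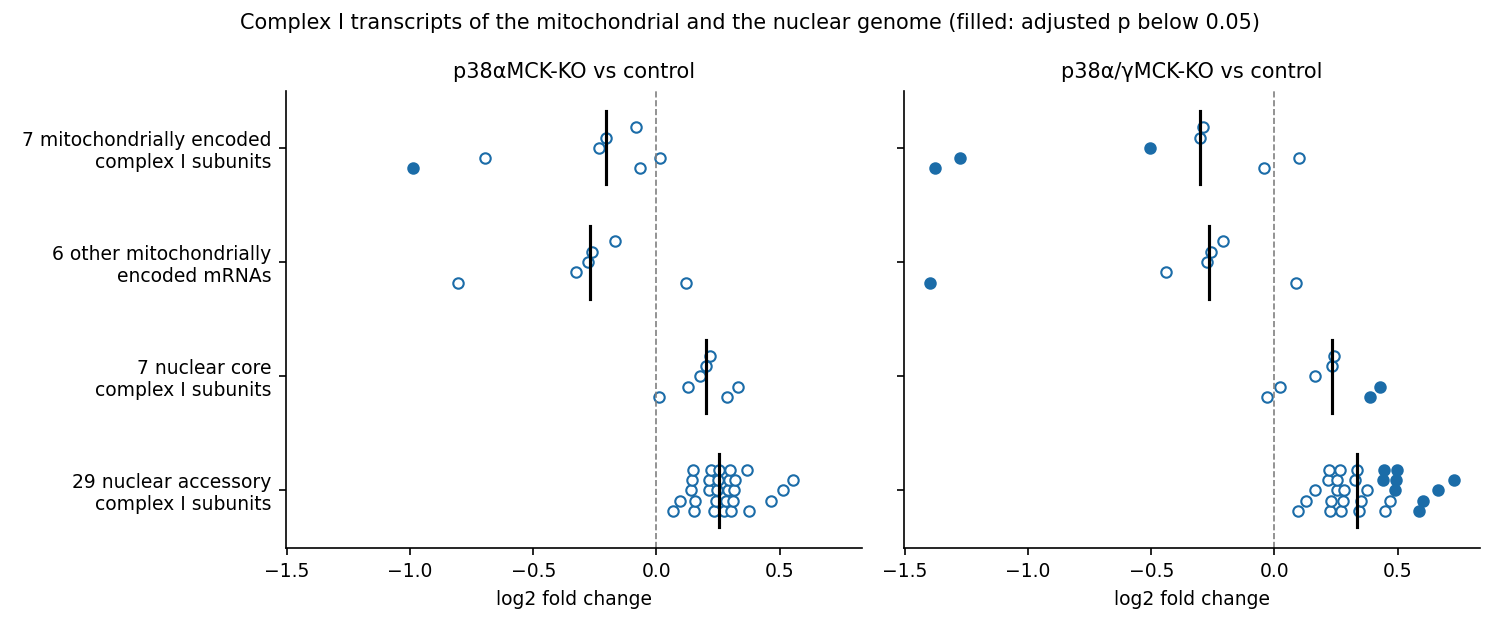
Log2 fold changes (horizontal axes) in the p38αMCK-KO (left) and the p38α/γMCK-KO (right) against control of the complex I subunits of the mitochondrial genome, the other mitochondrial mRNAs and the nuclear core and accessory subunits. Each circle is 1 gene, filled where the adjusted p was below 0.05, and black lines are medians; the members' medians are -0.21 and -0.30, those of the accessory subunits 0.26 and 0.33.

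Of 18 assembly factors of complex I tested, 1 was called higher in the p38αMCK-KO and 2 lower in the p38α/γMCK-KO. They were Dmac2 at 0.32 (limma adjusted p = 0.0352) in the p38αMCK-KO, and Ndufaf4 at -0.51 (limma adjusted p = 0.0138) and Ndufaf5 at -0.38 (limma adjusted p = 0.0239) in the p38α/γMCK-KO. NDUFAF5 modifies Ndufs7 during assembly and NDUFAF4 acts in early assembly, both shown in human cells. The call held in 13 of 22 settings for Dmac2, 20 for Ndufaf4 and 15 for Ndufaf5. Of all genes, 7.32% were called higher in the p38αMCK-KO and 14.4% lower in the p38α/γMCK-KO.

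Among 15 genes of mitochondrial transcription and replication, 1 rose and 1 fell in the p38αMCK-KO and 2 fell in the p38α/γMCK-KO. Among all genes, 7.32% were called higher and 10.4% lower in the p38αMCK-KO, and 14.4% lower in the p38α/γMCK-KO. Mgme1, an exonuclease of mitochondrial DNA, fell in both, by 0.56 (limma adjusted p = 0.0253) in the p38αMCK-KO and by 0.61 (limma adjusted p = 0.0165) in the p38α/γMCK-KO on the log2 scale. Tfb2m, a factor that opens the promoter for the mitochondrial RNA polymerase, was at -0.52 (limma adjusted p = 0.0216) in the p38α/γMCK-KO, and Ssbp1, which binds single-stranded mitochondrial DNA, was at 0.33 (limma adjusted p = 0.0395) in the p38αMCK-KO. Of 22 settings, 14 and 18 kept the call of Mgme1 in the p38αMCK-KO and the p38α/γMCK-KO, 18 that of Tfb2m and 12 that of Ssbp1.

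Of 20 genes of mitochondrial RNA processing and stability, 1 rose in the p38αMCK-KO and 5 fell in the p38α/γMCK-KO. For all genes the shares were 7.32% higher in the p38αMCK-KO and 14.4% lower in the p38α/γMCK-KO. The p38αMCK-KO gene was Ptcd2 at 0.49 (limma adjusted p = 0.00735). The 5 were Fastkd1 at -0.58, Fastkd2 at -0.55, Trmt10c at -0.55, Pde12 at -0.49 and Grsf1 at -0.41, with limma adjusted p from 0.0191 to 0.0292. The call of Ptcd2 held in 21 of 22 settings and those of the 5 in 13 to 18. Grsf1 and Fastkd2 belong to the RNA granules of mitochondria, Trmt10c is part of the enzyme that cuts the 5′ ends of mitochondrial tRNAs, and Pde12 removes poly(A). Fastkd1, a protein of the same family as Fastkd2, measured 12.2 to 16.4 in the p38αMCK-KO and 10.3 to 13.8 in the p38α/γMCK-KO, against 17.4 to 20.7 in the controls.

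Of 12 regulators of mitochondrial biogenesis, 1 rose and 1 fell in the p38αMCK-KO, and 2 rose and 3 fell in the p38α/γMCK-KO. For all genes the shares were 7.32% higher and 10.4% lower in the p38αMCK-KO, and 11.2% and 14.4% in the p38α/γMCK-KO. Ppargc1a, the coactivator PGC-1α, was at 0.68 (limma adjusted p = 0.00731) in the p38αMCK-KO and 0.53 (limma adjusted p = 0.0163) in the p38α/γMCK-KO. Its values were 41.1 to 52.2 in the p38αMCK-KO and 37.7 to 41.3 in the p38α/γMCK-KO, against 23.7 to 30.4 in the controls. Yy1, a transcription factor that works with it in muscle, was at -0.40 (limma adjusted p = 0.0435) and -0.53 (limma adjusted p = 0.0145) in the same comparisons. The Ppargc1a calls held in 22 and 20 of 22 settings, whereas those of Yy1 held in 6 for the p38αMCK-KO, where the adjusted p reached 0.194, and 18 for the p38α/γMCK-KO. In the p38α/γMCK-KO the related coactivator Ppargc1b was at 0.64 (limma adjusted p = 0.0445), Pprc1 at -0.57 (limma adjusted p = 0.0412) and Gabpa, a subunit of nuclear respiratory factor 2, at -0.70 (limma adjusted p = 0.0416). These 3 calls were lost in many of the 22 settings, holding in 13 for Ppargc1b, 11 for Pprc1 and 11 for Gabpa.

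Markers of other cell types were counted beside these genes. Over all genes, 7.32% were called higher and 10.4% lower in the p38αMCK-KO, and 11.2% and 14.4% in the p38α/γMCK-KO. Of the 10 macrophage markers 8 were called higher in the p38αMCK-KO and 9 in the p38α/γMCK-KO, and of the 6 fibroblast or progenitor markers 0 and 3. Of the 9 fast fibre markers 1 fell in each, Acta1 at -0.59 (limma adjusted p = 0.0270) in the p38αMCK-KO and Actn3 at -0.86 (limma adjusted p = 0.0420) in the p38α/γMCK-KO, while of the 7 slow fibre markers 0 were called in either. The call of Acta1 held in 11 of 22 settings and its value turned to 0.14 under quantile normalisation, and the call of Actn3 held in 10 of 22. Of the 5 endothelial markers 0 were called in the p38αMCK-KO and 1 was lower in the p38α/γMCK-KO, Cdh5 at -0.46 (limma adjusted p = 0.0195). Of the 5 adipocyte markers 1 was lower in the p38αMCK-KO, Lep at -2.70 (limma adjusted p = 0.0358), and 0 were called in the p38α/γMCK-KO. Lep measured 0.950 to 3.01 in the p38αMCK-KO and 3.34 to 33.0 in the controls. Both calls failed in some settings, holding in 15 of 22 for Cdh5 and 14 of 22 for Lep. The 5 erythroid and 4 Schwann cell markers had 0 calls in either knockout. The part of the cell mixture in the members' values was not tested.

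By the rule for likeness, the 5 nuclear genes whose values followed the mean of the members most closely over the 9 libraries were Mast4 (Pearson r = 0.981), Sema6d (0.980), AW209491 (0.978), Nedd1 (0.976) and Caprin1 (0.976). Mast4 averaged 36.6 ± 5.73 in the p38αMCK-KO, 28.1 ± 6.54 in the p38α/γMCK-KO and 58.0 ± 13.2 in the controls (SD, n = 3 each). Of the mitochondrial mRNAs that are not members, mt-Co1 was most like that mean (r = 0.986). Among the members themselves r was 0.982 for mt-Nd5, 0.981 for mt-Nd2, 0.971 for mt-Nd4l, 0.922 for mt-Nd1 and 0.911 for mt-Nd4, but 0.248 for mt-Nd3 and 0.0251 for mt-Nd6. Each member is part of that mean, so its own values raise its r, most for members that vary widely. These are descriptions over 9 libraries in 3 groups that share 1 scaling.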

How the data were processed

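Per the labels' protocols, gastrocnemius RNA with RIN values above 8 was used, 100 ng entered a strand-keeping library kit after poly(A) selection, and single reads of 51 bases were made. The submitters' processing notes name CASAVA 1.8, cutadapt, RSEM 1.3.1, limma and the build GRCm38; the annotation release is not given in the sources used here. The table deposited by the authors holds 1 signal value per gene and library, named as normalised counts, and its scaling is not given in the sources used here. The 9 sample columns were matched to samples by title, and 0 columns were left unused. Within 0.001 reads, every value was a whole number plus 0.5 times a factor of its library, from which the depths were inferred; they cover counting error only, and no count model was run on them.

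After a filter (a value of 1 or more in 3 or more libraries), limma 3.58.1, run in R 4.3.3, was fitted to log2(value + 1) of all 9 libraries with a trended empirical Bayes step, and p-values were Benjamini-Hochberg adjusted over all tested genes. Fold changes are of value + 1 and understate those of low genes. The procedure was tested on simulated data with the same fixed spread for all genes and fewer changed genes than were called against control here. Its error rates in that test may therefore not hold for these data. Single genes were also compared by two-sided exact permutation. Copies were found with BLAST 2.17.0 among the GENCODE M21 transcripts, and near-identical means at least 99% over the aligned bases.

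The members and gene lists were chosen with earlier results of these data known. Named were all members, all other mitochondrial mRNAs, of each list all called genes or, beyond 6, the 3 with the lowest adjusted p in each direction, and the 5 nuclear genes most correlated with the members' mean; the copies and the targeted genes were added. The markers of macrophages and fibroblasts served only for counts and sums. The values of 1 called nuclear subunit gene are not reported here.

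To see whether the replicate numbers pair the libraries, each library's deviation from its group's mean was correlated over genes with that of the library of the same number. Between p38α/γMCK-KO and control, r was 0.111, 0.124 and 0.148, above every r between unlike numbers, and the numbers were treated as a possible pairing. The labels do not say what the numbers mean, and 3 libraries a group cannot establish a pairing. For the p38αMCK-KO and the controls r was -0.0858, -0.0866 and 0.0951, and for the 2 knockouts -0.331, -0.228 and 0.0885. The main fit held no block, so its p-values for the p38α/γMCK-KO against control do not use that possible pairing. A block in the 9 libraries also pairs the p38αMCK-KO, where r gave no such pattern. In the 6 libraries of the p38α/γMCK-KO and the controls, 5563 genes were called with the block and 5478 without it. The alternatives changed the scaling, the filter, the pseudocount, the trend of the spread, which libraries were fitted and the block, and left out each library in turn. Python 3.11.15 with matplotlib 3.10.9 drew the figures.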

Additional observations from a re-analysis of the deposited data

How the results depend on the processing

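The lower mt-Nd4l and mt-Nd5 of the p38α/γMCK-KO kept an adjusted p below 0.05 in 22 of 22 alternatives. For mt-Nd2 in that knockout this held in 12 of 22, and for mt-Nd4l in the p38αMCK-KO in 18 of 22. For mt-Nd5 in the p38αMCK-KO it held in 3 of 22, with adjusted p from 0.0423 to 0.306. In the p38αMCK-KO 2 members were called with a minimum value of 5, where 2058 of 9785 genes were called. With a replicate block in the 6 libraries 0 members were called. When 1 library was left out 0 to 2 members were called, where 801 to 3241 genes were. In the p38α/γMCK-KO the members called numbered 2 with the replicate block in the 9 libraries, which ended the call of mt-Nd2. With the block in the 6 libraries they numbered 3, and 2 to 3 when 1 library was left out. Of all genes, 2320 of 13137 were called with the block in the 9 libraries and 5563 of 12827 in the 6. When 1 library was left out, 844 to 5346 genes were called. Between the knockouts the members called numbered 0 to 1, the 1 being mt-Nd5 without p38αMCK-KO library 1, where 1862 of 13007 genes were called. In 6 libraries with the block, genes called in the p38αMCK-KO numbered 310 of 12761, against 2332 of 13137 without a block in 9.

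Against the sum without mitochondrially encoded genes, the members made up 5.67% in the p38αMCK-KO, 4.86% in the p38α/γMCK-KO and 5.72% in the controls. With the copies added their share was 5.19% in the p38αMCK-KO, 4.48% in the p38α/γMCK-KO and 5.40% in the controls, and 28.3%, 27.4% and 29.4% of mitochondrial mRNA in the p38αMCK-KO, the p38α/γMCK-KO and the controls.

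Small differences of members changed sign on the log2 scale, none of them called on the deposited scale. For the p38αMCK-KO these were mt-Nd1 at 0.12 (column sum), 0.13 (sum without mitochondrial genes, with or without the copies) and 0.21 (quantile normalisation), mt-Nd4 at 0.0028, 0.0030 and 0.073 (sum without mitochondrial genes, without the copies as well, quantile), mt-Nd6 at 0.14 on all 3 sums and 0.041 (quantile), and mt-Nd3 at -0.013 with the copy added. When 1 library was left out, mt-Nd3 ran from -0.086 to 0.085 and mt-Nd6 from -0.15 to 0.051 in that knockout. For the p38α/γMCK-KO they were mt-Nd3 at 0.17 (column sum and quantile), 0.15 and 0.13 (sums without mitochondrial genes, and without the copies as well), mt-Nd1 at 0.015 and mt-Nd4 at 0.044 (quantile), and leaving out 1 library moved mt-Nd3 between -0.10 and 0.035. Between the knockouts it moved mt-Nd3 between -0.042 and 0.13 and mt-Nd4 between -0.020 and 0.15. Acta1, called lower in the p38αMCK-KO at -0.59, turned to 0.14 under quantile normalisation (limma adjusted p = 0.615). The cause was not tested. A count model on the inferred reads was not run, and with 3 libraries a group the exact permutation p could not go below 0.1.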
